A study of Mus musculus with 8 samples.

Results

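The genes described here encode the proteins of the cytosolic ribosome, and they were chosen by name alone: symbols of Rps or Rpl followed by a digit, together with Rpsa, Rplp0, Rplp1 and Rplp2. Names with -ps, the Rps6k kinases and Rps19bp1 were dropped, which left 87 of the 24341 listed genes, 34 named for the small and 53 for the large subunit. RNA came from the tibialis anterior, a mostly fast muscle at the front of the shin, of 8 chow-fed mice aged 12 weeks and described as male. The 4 knockouts (Carm1 skm-/-, HSAcre Tg/0 with floxed Carm1) lack the arginine methyltransferase CARM1 in muscle fibres, where the human skeletal actin promoter drives Cre, and the 4 controls (Carm1 skm+/+, HSAcre 0/0) carry floxed Carm1 without Cre. All 8 animals therefore carry the floxed allele, and presence of Cre cannot be told apart from loss of Carm1. Cells other than fibres keep the gene.

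A ribosome is built from a small subunit, which reads the messenger RNA, and a large subunit, which joins the amino acids, and each holds ribosomal RNA and about equal numbers of each of its proteins. The messenger RNAs of these proteins are known for a tract of pyrimidines that begins at the first transcribed base, the terminal oligopyrimidine or TOP tract, through which growth signals by way of mTOR control their translation. Vertebrate genomes also hold many processed copies of these genes, and a few paralogs with restricted expression, among them Rpl3l, which takes the place of Rpl3 in heart and skeletal muscle.

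Start-site sequences are printed to show that feature beside the levels that follow. RefSeq promoters (GRCm38.p6) were matched by symbol for 66 of the 87 genes. A C at an annotated start that opens a run of at least 5 C or T bases on the transcript's own strand was found in 14 of these 66 (21.2%), against 3.01% of the 27025 genes in the table, where a gene with several starts counted once if any start had it. Within 10 bases of the start on either side such a run was found in 60.6% of the members and in 34.4% of all genes. Both shares are descriptions of annotated starts, which can lie a few bases from the starts used in muscle. Each of the following windows runs 5′ to 3′ over 30 bases, 15 before the start and 15 from it on. Capitals mark the run that begins with C, at the start in the first 8 and at the nearest position in Rpl22l1 and Rpl3l.
Rps6, chr4:86857353-86857382, minus strand: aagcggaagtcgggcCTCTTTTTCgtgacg
Rps10, chr17:27635230-27635259, minus strand: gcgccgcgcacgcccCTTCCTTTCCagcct
Rps18, chr17:33955651-33955680, minus strand: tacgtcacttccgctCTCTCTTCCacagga
Rpl15, chr14:18270972-18271001, minus strand: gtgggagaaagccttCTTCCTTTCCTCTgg
Rpl35, chr2:39005117-39005146, minus strand: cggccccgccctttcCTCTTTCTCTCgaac
Rplp2, chr7:141447636-141447665, plus strand: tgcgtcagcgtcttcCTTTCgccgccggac
Rps27, chr3:90213634-90213663, minus strand: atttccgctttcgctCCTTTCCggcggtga
Rps27rt, chr9:114982725-114982754, minus strand: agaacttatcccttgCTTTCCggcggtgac
Rpl22l1, chr3:28805493-28805522, plus strand: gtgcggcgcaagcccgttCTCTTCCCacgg
Rpl3l, chr17:24727811-24727840, plus strand: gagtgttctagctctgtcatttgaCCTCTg
In Rpl3l, shown at the more upstream of its annotated starts, the tract begins 9 bases into the annotated transcript and in Rpl22l1 3 bases, whereas Rps6, Rps27 and the others shown open with it.

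Levels were given as FPKM, that is fragments counted per kilobase of a gene's transcript and set against all fragments placed, and values below are FPKM divided by 1 scaling factor per library (scaled FPKM). Summed FPKM lay between 604428 and 681042 and the scaling factors between 0.904 and 1.07. Read counts are not known, and the spacing of low values put the relative depth between 81.0% and 100% of the deepest library. Carm1 lay between 12.7 and 18.0 scaled FPKM in the knockouts and between 27.1 and 37.4 in the controls. Xist was present in control 1, knockout 2 and knockout 4 although the animals are described as male. The Y-linked Eif2s3y stood at 0.112, 0 and 0.0484 FPKM in these libraries, against 42.3 to 58.1 in the other 5. Both genes thus go against the stated sex in these libraries, which are split unevenly between the groups. Myh2, the type IIa myosin, stood at 764, 1540 and 1535 FPKM in the libraries with Xist, against at most 167 in the other 5. Of 8 fibre markers 5 were usable, namely Mylpf, Myl1, Pvalb, Actn3 and Tnni2. Their sum lay between 73393 and 109633 scaled FPKM in controls and between 46237 and 78226 in knockouts. In this sum the amount of fibre and the type of fibre cannot be told apart. The other 3, Ckm, Acta1 and Tnnt3, were listed at 0 in at least 1 library through failed estimates. The lymphocyte markers, of which 1 of 5 reached a mean of 1, summed to 1.45 to 2.21 in controls and to at least 2.86 in each knockout, and their part in any result was not tested. Of the markers of dividing cells 0 of 4 reached a mean of 1.

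Transcripts of ribosomal proteins made up 5.17% ± 0.213 of all FPKM in controls and 5.10% ± 0.389 in knockouts (SD over 4 libraries each). Most were abundant: of the 85 genes that reached 1 scaled FPKM in at least 4 libraries, 69 had a mean between 100 and 1000, 3 lay above and 13 below. The median over the 85 was 338 scaled FPKM. Rplp1, an acidic protein of the stalk that recruits elongation factors, was the most abundant. It stood at 1767, 1817, 2111 and 1665 scaled FPKM in controls 1 to 4 and at 1823, 1503, 1690 and 1710 in knockouts 1 to 4, so that the groups overlapped. Its partner Rplp2 lay between 748 and 1074. The small-subunit genes Rps21, Rps15, Rps29 and Rps20 and the Rps27 copy Rps27rt were also among the 8 highest. Rps21 had a median of 1219 scaled FPKM (range 1120 to 1561). Rps15 had a median of 958 (847 to 1127) and Rps29 of 935 (750 to 1272). Rps15 and Rps29 overlap in their ranges and neither is the higher in every library, while Rps21 lies above both in all 8. Rps20 followed with a median of 856 (818 to 1030). Rpl10l, a paralog known from testis, was listed at 0 in all 8 libraries. Rpl39l, likewise known from testis, lay between 0.139 and 0.726 scaled FPKM. These last 2 genes were not tested.

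**Figure D1:**
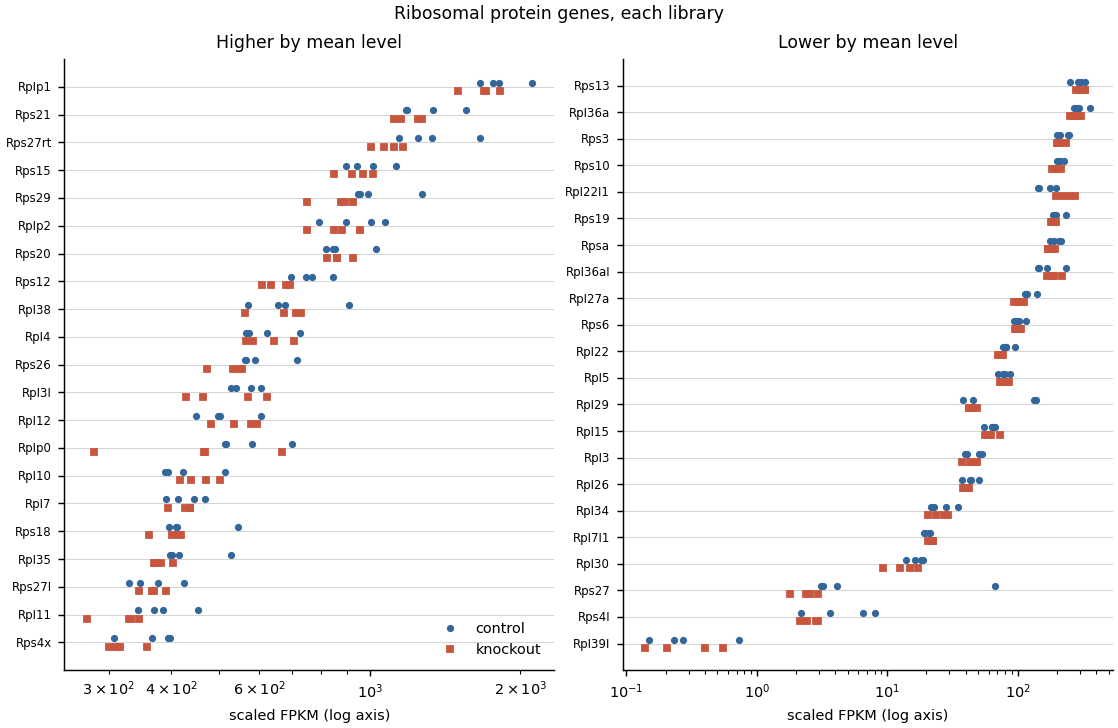
Scaled FPKM (log axis) of the ribosomal protein genes named in the text with values above 0, ordered by mean, with 1 blue circle per control and 1 red square per knockout library. Levels run from Rplp1 down to Rpl39l, and most genes have close libraries, while Rpl29 and Rps27 each have control libraries far from the rest.

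Libraries varied little for most genes. The coefficient of variation over the 8 libraries had a median of 11.2% and was under 20% for 79 of the 85 genes, and in 80 the highest library was less than 2 times the lowest. The 6 with more variation were Rps27, Rpl29, Rps4l, Rplp0, Rpl22l1 and Rpl30. Part of the members' sequence is shared with other genes. Of all 50-base stretches in the principal transcript, a median of 52.9% also occurred in transcripts of other GENCODE release M21 genes of any type. For Rps27 this was 98.6%, for Rpl10 92.1% and for Rps12 90.1%, while Rpl3l had none. Over the 85 genes Spearman's rho between that share and the coefficient of variation was 0.04, and between that share and the mean level -0.14. These are descriptions across genes of the same libraries.

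For 4 genes with low values a processed copy was listed at the identical position and held most of the signal. The deposited tables place Rps27rt at the position of Rps27, chr3:90212666-90213648 (mm10), although GENCODE release M21 has Rps27rt on chromosome 9 from 114982366 to 114982739. Gm15772 is listed at the position of Rpl26 on chromosome 11, Gm12191 at that of Rpl30 on chromosome 15 and Rpl34-ps1 at that of Rpl34 on chromosome 3. GENCODE gives these 3 as processed pseudogenes on chromosome 5 (3236431 to 3236868), chromosome 11 (49678710 to 49679057) and chromosome 6 (71124610 to 71124963). Rps27 held a median of 0.239% of the summed value at its position, Rpl30 2.69%, Rpl34 4.51% and Rpl26 7.13%. The reading frame of Rps27, a zinc-finger protein of the small subunit, is printed because that of Rps27rt is the same over all 255 bases.
Rps27 and Rps27rt: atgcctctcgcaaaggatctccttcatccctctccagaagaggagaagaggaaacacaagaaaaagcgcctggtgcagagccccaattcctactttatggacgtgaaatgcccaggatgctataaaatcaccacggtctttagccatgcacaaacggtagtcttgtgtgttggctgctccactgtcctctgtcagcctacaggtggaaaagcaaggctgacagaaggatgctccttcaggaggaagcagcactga
The reading frames of Rpl30, Rpl26 and Rpl34 differ from the copies by 1, 2 and 2 bases. The windows around 1 difference each are shown, with the differing base in capitals and positions counted from 1 at the A of the start codon: G96A in Rpl30, C177T in Rpl26 and T132C in Rpl34.
Rpl30: cgtgctgggctacaaGcagactctgaagat
Gm12191: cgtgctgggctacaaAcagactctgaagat
Rpl26: agttcaggttgttcgCggacactacaaagg
Gm15772: agttcaggttgttcgTggacactacaaagg
Rpl34: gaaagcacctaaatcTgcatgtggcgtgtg
Rpl34-ps1: gaaagcacctaaatcCgcatgtggcgtgtg
A fragment from the reading frame that covers none of the differing bases cannot be assigned to the gene or the copy by its letters.

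The division between gene and copy differed between libraries in Rps27. Rps27 stood at 67.3 scaled FPKM in control 1 and at 3.23, 4.09 and 3.11 in controls 2 to 4, and at 2.97, 1.81, 2.38 and 2.55 in knockouts 1 to 4. Rps27rt stood at 1143, 1247, 1660 and 1331 in controls 1 to 4 and at 1066, 1006, 1118 and 1166 in knockouts 1 to 4. In the sum of both, control 1 stood at 1210 scaled FPKM and controls 2 to 4 at 1250, 1664 and 1334. Knockouts 1 to 4 stood at 1069, 1008, 1120 and 1169 in this sum, all below the lowest control. The high value of Rps27 in control 1 is small beside the spread of these sums, so they do not tell how it arose. The log2 difference of Rps27 between knockout and control was -1.37 (SE 0.82, adjusted p = 0.515 in limma) and -0.39 without control 1. For the sum it was -0.31 (SE 0.12, adjusted p = 0.308 in limma). The sum at the position of Rpl34 was 302 scaled FPKM in control 2 and between 495 and 762 in the other 7 libraries, and its difference was 0.23 (SE 0.25) where Rpl34 alone gave -0.07 (SE 0.16). The sums of Rpl26 with Gm15772 and of Rpl30 with Gm12191 lay between 517 and 745 and between 466 and 842. Both sums were highest in control 3. With each pair summed, these 4 genes stood at levels of the other abundant members.

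**Figure D2:**
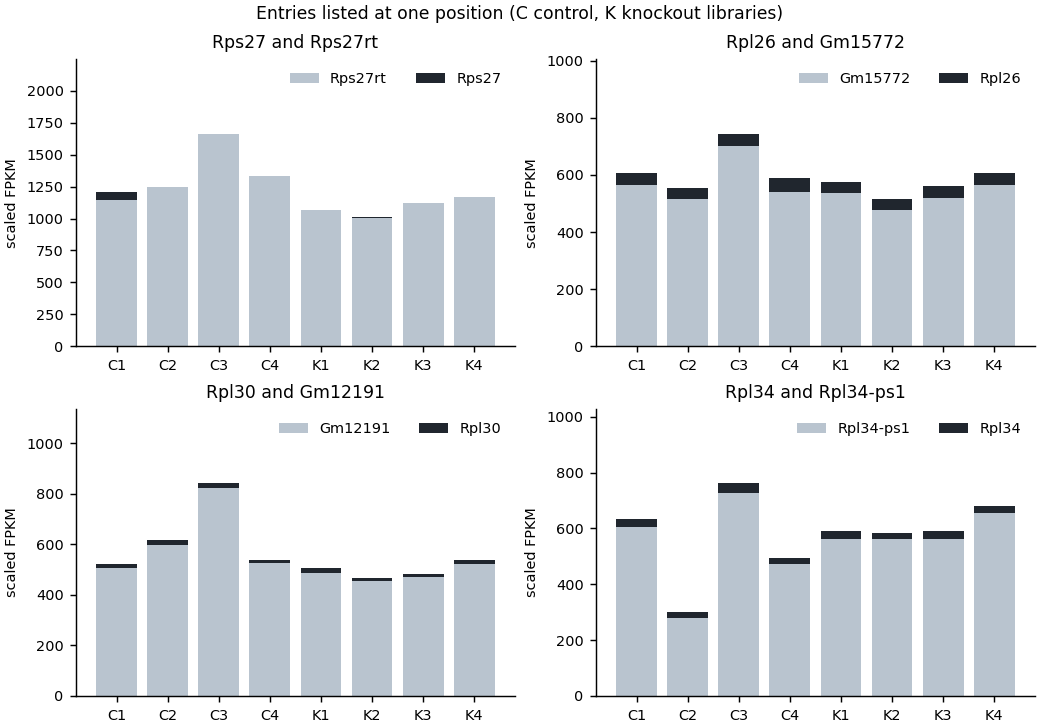
Stacked bars of scaled FPKM in each library for 4 ribosomal protein genes (dark) and the copy listed at the identical position (grey), C for control and K for knockout. The copy holds nearly all of each bar, the dark part of Rps27 is visible in control 1 at 67.3, and control 2 is low for Rpl34 with Rpl34-ps1.

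Further genes had single libraries apart from the rest, and they were singled out after their values were seen. Rpl29, a small basic protein of the large subunit, stood at 134 and 139 scaled FPKM in controls 1 and 3, at 38.3 and 45.7 in controls 2 and 4, and between 42.4 and 48.6 in all 4 knockouts. Its log2 difference was -0.76 (SE 0.41, adjusted p = 0.483 in limma), and -0.49 and -0.47 without control 1 or control 3. Each of these fits keeps the other high control, and a fit without both was not run. Control 2 lay below the range of the knockouts and control 4 within it. Of the 50-base stretches of Rpl29 66.6% occur in other genes, and 28 of those genes each hold at least 10%. Rplp0, the stalk protein that anchors Rplp1 and Rplp2, stood at 699, 514, 582 and 515 in controls 1 to 4 and at 466, 467, 280 and 669 in knockouts 1 to 4. Knockout 3 was the lowest library of Rplp0 but not of Rplp1 or Rplp2, and without it the log2 difference of Rplp0 moved from -0.35 (SE 0.24) to -0.12. In the 5 libraries without Xist it was -0.57. Rps4l, listed over 396937 bases and annotated by GENCODE as a transcribed processed pseudogene, stood at 2.18, 6.54, 3.63 and 8.10 in controls and between 2.16 and 2.97 in knockouts. Rps15 and Rpl38 were listed over 672333 and 413361 bases, far beyond the genes' GENCODE positions. Several other members, among them Rpl5 over 86550 bases, were also listed beyond their GENCODE positions. How reads in all those spans were divided is not known.

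No ribosomal protein gene passed the comparison of knockout with control. In limma over 11096 genes 0 of 85 were called at an adjusted p under 0.05, where 0.36% of all genes were called, and the smallest adjusted p of a member was 0.189. At an unadjusted p under 0.05 there was 1 higher (7.03% of all genes) and there were 4 lower (6.07% of all genes). The log2 difference (knockout minus control, on log2 of scaled FPKM + 1) was below 0 in 76 of the 85 with this scaling, in 46 with quantile normalization and in 40 after removal of trends on length, GC content and level. With this scaling it was below 0 in 50.5% of all genes. On FPKM as deposited 50 members were below 0, where the median of all genes was 0.07 and 73 members lay below that median, against 75 below it with scaling. The members' median was -0.11, with quartiles at -0.19 and -0.06, against a median of -0.00 over all genes. The standard error of a single member had a median of 0.11, which does not measure the error of the members' median. In bulk tissue fewer cells of a type and less RNA per cell cannot be told apart. Among the genes of the small subunit 33 of 34 were below 0 (median -0.13) and of the large subunit 43 of 51 (median -0.11). Summed over all members, controls held 34803 ± 3874 scaled FPKM and knockouts 31854 ± 1825 (SD, n = 4 each), and on FPKM as deposited 33587 ± 2254 and 32789 ± 1992.

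Rpl27a, Rps12, Rpl11, Rps27rt and Rps4l were among the 6 members with the smallest p below 0, and none of the 6 passed adjustment. Rpl27a, of the large subunit, stood at 118, 117, 140.3 and 115 scaled FPKM in controls 1 to 4 and at 111, 93.7, 106 and 104 in knockouts 1 to 4. All knockouts were lower than all controls (log2 difference -0.23, SE 0.09, limma adjusted p = 0.33). Rps12, of the small subunit, stood at 696, 768, 843 and 746 in controls and at 679, 609, 636 and 693 in knockouts, again without overlap, at -0.22 (SE 0.09, adjusted p = 0.353), and at -0.03 with quantile normalization. Rpl11, which also binds the p53 ubiquitin ligase Mdm2, stood at 385, 344, 452 and 370 in controls and at 346, 271, 333 and 330.0 in knockouts, with an overlap of control 2 and knockout 1. Its difference was -0.27 (SE 0.12, adjusted p = 0.363). Rps26, Rps29 and Rps27 were also without overlap and lower in the knockout. In all, 6 of 85 members were so, and 0 were without overlap and higher. Over all genes the knockouts lay wholly below the controls in 3.63%, wholly above in 4.68% and either in 8.31%. In Rps26, Rps29 and Rpl27a control 3 stood well above the other controls.

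The next 6 members were picked by role with their values known, and none passed the test. Their small differences therefore do not describe members with well-known roles in general. Rpl11 and Rplp0, described above, had larger ones at -0.27 and -0.35. Rpl5, whose listed span is given above, forms a particle with Rpl11 and ribosomal 5S RNA. It stood at 79.9, 70.6, 87.1 and 77.2 scaled FPKM in controls 1 to 4 and at 79.0, 72.7, 75.6 and 86.1 in knockouts 1 to 4, at -0.01 (SE 0.09). Rps6, the substrate of the S6 kinases, stood at 103 ± 9.21 in controls and 100.5 ± 5.40 in knockouts, at -0.03 (SE 0.09). Rps3, at the entry of the messenger RNA channel, was at -0.08 (SE 0.10) and Rps19, a gene mutated in Diamond-Blackfan anaemia, at -0.10 (SE 0.09). Rpsa, which also serves as a laminin receptor, stood at 197 ± 16.7 and 179 ± 10.3, at -0.14 (SE 0.09). Rpl4, which lines the exit tunnel, stood at 621 ± 73.4 and 624 ± 62.5, at 0.01 (SE 0.11). In each of these 6 genes the groups overlapped.

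**Figure D3:**
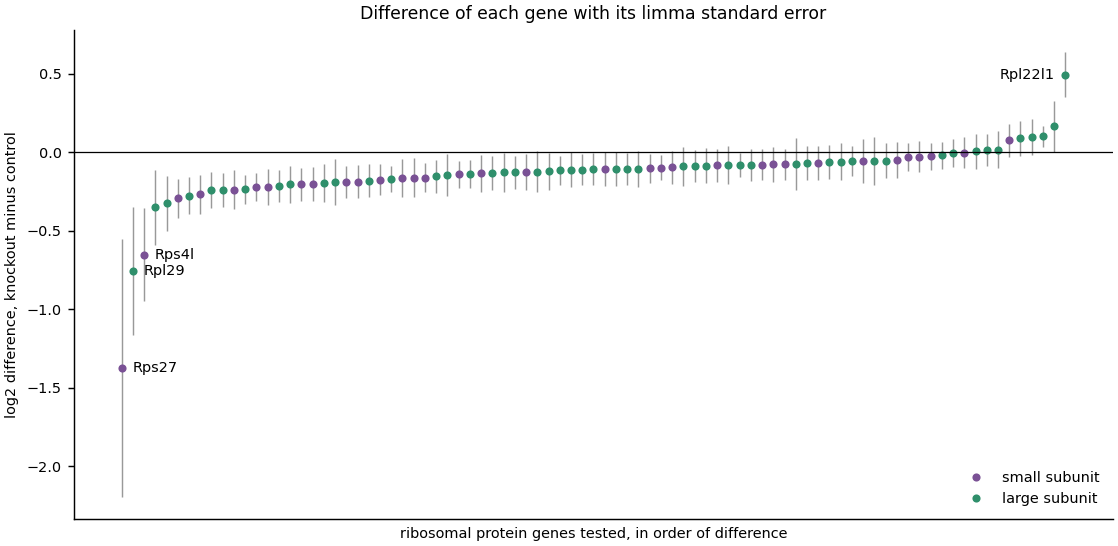
Log2 difference (knockout minus control) of each of the 85 genes tested in order of size, with bars of 1 limma standard error and colours for the subunit. With this scaling 76 of 85 points lie below 0, which fell to 40 after removal of trends. Rps27, Rpl29 and Rps4l lie lowest with wide bars and Rpl22l1 lies highest at 0.49.

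The position of the members below other genes was narrower without control 3 and absent with quantile normalization or after removal of trends. Both of these steps adjust values by level, and the second also by length and GC content. They can therefore take out a shift that abundant genes share, and cannot tell whether it was present. Relative to each gene's own mean over the 8 libraries, 82 of the 85 were above it in control 3, where the median deviation was 0.27 on the log2 scale, and 4 of 85 were above it in knockout 2, where it was -0.17. In the remaining 6 libraries the median deviation lay between -0.05 and 0.01. Controls 1, 2 and 4 therefore overlapped with knockouts 1, 3 and 4. Control 3 had the smallest scaling factor, 0.904, and the highest sum of fibre markers, 109633 scaled FPKM. Knockout 2 had the lowest sum, 46237, and a factor of 1.07. Knockout 4 had the same factor of 1.07 and the next lowest sum, 53226, while its median deviation was -0.02. The part of the factor or of the markers in the result was not tested. Without control 3 the difference was below 0 in 56 of 85 genes with a median of -0.04, and without knockout 2 in 71 with a median of -0.06. On FPKM as deposited the members' median was -0.02 against 0.07 over all genes. With quantile normalization 46 genes were below 0 with a median of -0.00, and after removal of trends 40 were below and 45 above 0, with a median of 0.00, where all genes had a median of 0.00 in both.

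**Figure D4:**
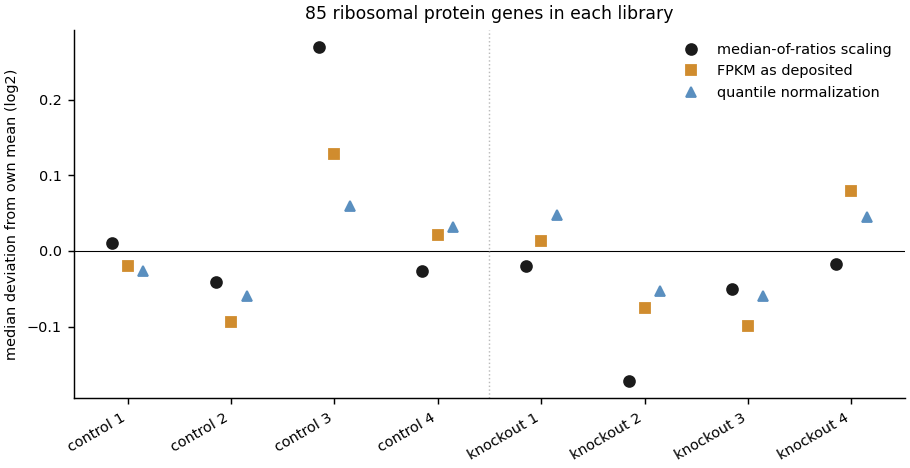
Median deviation (log2) of 85 ribosomal protein genes from their own means in each library, under 3 ways of putting libraries on 1 scale. Control 3 is highest under all 3, at 0.27 with median-of-ratios scaling, 0.13 as deposited and 0.06 with quantile normalization, and controls and knockouts overlap in each.

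Ratios of paralogs within a library do not change with its scaling. Rpl3l was far above Rpl3 in every library: it stood at 527, 580, 605 and 539 scaled FPKM in controls 1 to 4 and at 572, 429, 622 and 464 in knockouts 1 to 4. Rpl3, the general form, lay between 37.6 and 53.6. Rpl3l was thus 9.57 to 16.5 times as high as Rpl3, a ratio of values per length. Their reading frames, of 1224 and 1212 bases, share 898 identical positions, or 74.1% of the Rpl3 frame. Of the 50-base stretches of Rpl3 85.6% occur in other genes, so reads of Rpl3 cannot all be placed by their letters. Rpl3l made up 92.4% ± 1.07 of the sum of both in controls and 92.1% ± 1.82 in knockouts (SD, n = 4 each), with a 2-sided exact permutation p of 0.771, where 4 against 4 cannot go below 0.0286. The difference of -0.30 percentage points became 1.42 in the 5 libraries without Xist (exact permutation p = 0.4), where 3 against 2 cannot go below 0.2. The 3 libraries with Xist and high Myh2, control 1, knockout 2 and knockout 4, held the 3 lowest values of Rpl3l, an order noticed after the values were seen. Control 1 also had the lowest sum of fibre markers among controls, and knockouts 2 and 4 the lowest among knockouts. The part of fibre content or fibre type in this order was not tested.

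Rpl22l1, the paralog of Rpl22 whose messenger RNA is known to be held down by the Rpl22 protein, had the largest difference above 0. It stood at 178, 143, 146 and 197 scaled FPKM in controls 1 to 4 and at 276, 218, 196 and 248 in knockouts 1 to 4. Knockout 3 lay just below control 4, and the other knockouts lay above all controls. Controls had a mean of 166 ± 26.0 and knockouts of 234 ± 34.9, or 141% of controls (SD, n = 4 each). This log2 difference of 0.49 (SE 0.14) had an adjusted p of 0.189 in limma, and it lay between 0.41 and 0.60 over all alternatives, where the adjusted p lay between 0.117 and 0.39. Rpl22 itself stood at 83.7 ± 7.69 in controls and 74.3 ± 2.83 in knockouts (-0.17, SE 0.08). Rpl22l1 made up between 60.7% and 70.7% of the sum of both in controls and between 72.5% and 78.6% in knockouts, without overlap. This share was singled out after its values were seen and was not tested.

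Rps4l, whose values are given above, made up 1.42% ± 0.820 of its sum with Rps4x in controls and 0.811% ± 0.155 in knockouts, with overlap. Rps27l, a p53-induced paralog of Rps27, stood at 370 ± 41.6 scaled FPKM in controls and 368 ± 18.6 in knockouts (log2 difference -0.00, SE 0.10). Against Rps27rt it made up 20.4% to 22.4% of the sum in controls and 24.9% to 25.6% in knockouts, without overlap and likewise not tested. Rpl36al, an intron-poor paralog of the X-linked Rpl36a, made up 36.0% ± 2.79 of their sum in controls and 40.5% ± 3.03 in knockouts, with overlap. Rpl7l1, a paralog of Rpl7 that acts in ribosome assembly, lay between 19.3 and 22.6 scaled FPKM, at 0.10 (SE 0.07), and made up at most 5.35% of the sum with Rpl7. Rpl12, Rpl10 and Rps13 were the others of the 6 members with the smallest p above 0, at 0.10 (SE 0.12), 0.09 (SE 0.11) and 0.08 (SE 0.10). The X-linked Rps4x stood at 394, 308, 399 and 366 in controls 1 to 4 and at 301, 317, 310 and 357 in knockouts 1 to 4, at -0.19 (SE 0.11). Over both groups together the libraries with Xist were not separated from the rest. Among knockouts those with Xist, 2 and 4, lay above 1 and 3, while control 1 lay below control 3.

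**Figure D5:**
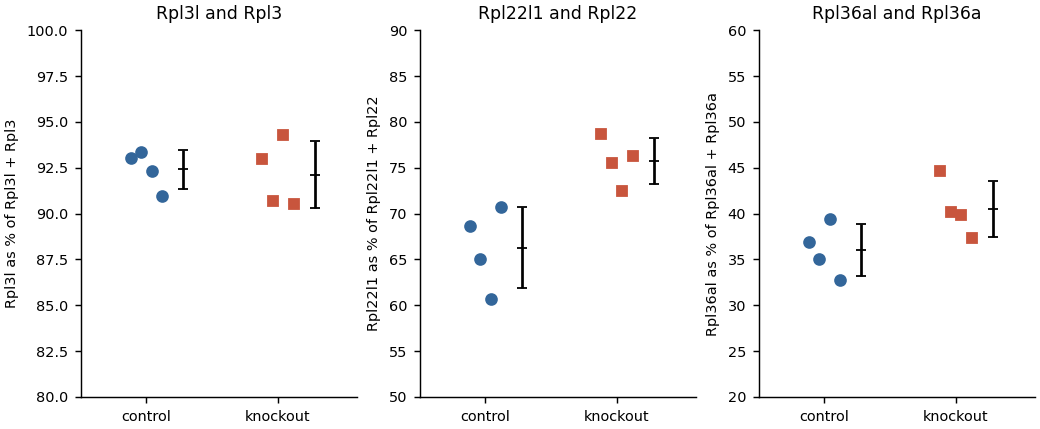
Share (%) of a paralog in the sum of it and its partner, in each control (circles) and knockout (squares) library, with mean ± SD beside them. The axes do not start at 0. Rpl3l lies between 90.5% and 94.3% in both groups, the shares of Rpl22l1 do not overlap between groups, and those of Rpl36al do.

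Genes around the ribosome were likewise not called. Fau, outside the naming rule, encodes a protein of the small subunit, and its log2 difference was -0.09 (SE 0.10). Among 17 genes listed by name as TOP genes, elongation factors and others, 0 were called, with 6 above and 11 below 0 and a median of -0.04. Eef1a2, the elongation factor of adult muscle, stood at 660.1 ± 63.1 and 540.2 ± 20.5, without overlap (-0.28, SE 0.09, adjusted p = 0.229), and Eif3f, a subunit of an initiation factor, was at -0.24 (SE 0.10). Of 42 genes of translation initiation 0 were called, with 20 above and 22 below 0 and a median of -0.02. Larp1, which binds TOP tracts and represses translation of these messenger RNAs, stood at 16.7 ± 0.854 and 19.3 ± 0.733, without overlap (0.20, SE 0.07, adjusted p = 0.261).

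Ribosome assembly factors were described next. Of 48 tested 0 were called, with 30 above and 18 below 0 and a median of 0.05. Nop56 and Fbl, partners in the particle that methylates ribosomal RNA, were at -0.26 (SE 0.07, adjusted p = 0.183) and -0.36 (SE 0.12, adjusted p = 0.257). Of 14 genes of RNA polymerase I and its factors, which transcribe ribosomal RNA, 0 were called, with 6 above and 8 below 0. Polr1a, the largest subunit, stood at 8.82 ± 0.982 scaled FPKM in controls and 12.8 ± 1.48 in knockouts, without overlap (0.49, SE 0.11, adjusted p = 0.101). Znrd1, a small subunit of that polymerase, stood at 27.0 ± 2.05 and 22.7 ± 1.02, also without overlap (-0.24, SE 0.08, adjusted p = 0.238). At an unadjusted p under 0.05 in limma were 3 of the listed TOP genes, 2 of the initiation genes, 4 of the assembly factors and 3 of the polymerase genes. Of all genes 13.1% were so. The first 2 of these lists overlap, and Eif3f is counted in both.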

How the data were processed

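The authors deposited 1 table of FPKM values for each library, in the layout that Cufflinks writes for genes, per the file headers. STAR, Cufflinks and mm10 are named in the submitters' processing notes, without versions; the annotation, the treatment of reads that match several places and the read depth are not given in the sources used here. Libraries came from Trizol-extracted total RNA with a TruSeq kit, per the labels' protocols. The 4 animals per genotype are separate biological replicates per the labels. Cufflinks divides reads between overlapping or near-identical genes by estimation, so values of genes with processed copies are uncertain.

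Scaling factors were medians of ratios to the geometric mean, taken from 10180 genes that reached 1 FPKM in every library, 85 of them members. The 23 genes whose status was not OK somewhere, no members among them, were left out. The 11096 genes that reached 1 scaled FPKM in 4 or more libraries were tested as log2(scaled FPKM + 1) with limma 3.58.1 in R 4.3.3 (eBayes with a trend, Benjamini-Hochberg adjustment over all, threshold 0.05). Fold changes of low genes are understated on this scale. The Rpl3l share was tested by exact permutation, 2-sided. The comparison was also run on simulated data with 11096 genes, 10 simulations and 200 changed genes each. There limma recovered 85.5% of differences of 1 and 41.7% of those of 0.5, and 4.46% of its calls were false. In the deposited libraries most members lay high together in control 3 and low together in knockout 2. Whether the rates from simulated data hold for such libraries was not tested. The rest used matplotlib 3.10.9, scipy 1.17.1, pandas 2.3.3 and numpy 2.4.6 under Python 3.11.15.

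Copies and 50-base stretches come from GENCODE release M21 (GRCm38, the assembly also called mm10), and start-site windows from RefSeq. Reading frames are the longest from ATG to stop in a protein-coding transcript.

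Members and lists were chosen with earlier results of these data known. Named were the 8 highest members, the 6 with the smallest p in each direction, those without overlap between groups, those with a highest library at least 4 times the lowest, the paralog pairs, and from each other list the 2 with the smallest p. Rpl29, Rplp0, Rpl26, Rpl30, Rpl34 and the members picked by role were added after their values were seen. A few genes that the rule names are not reported here. Alternatives were no scaling, quantile normalization, scaling without the members, a pseudocount of 0.1, a filter on the mean (5 scaled FPKM or more), no filter, the replicate number as a block, a covariate for Xist, only the 5 libraries that lack Xist, leaving out knockouts 2 and 4, loess trends (span 0.5) removed, robust eBayes, array weights and leaving out each library. Alternatives with fewer libraries kept the same 11096 genes. Summing entries at one position was chosen after seeing the data.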

Additional observations from a re-analysis of the deposited data

Results flagged for a closer look

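Among the named genes, the Rpl3l share and the summed level, 72 groups of 4 libraries were checked for 1 library far from the other 3, and 6 were found. The limit used passes about 1 in 20 groups by chance, a rate that does not hold here, since several genes were named for their values and the sum shares its libraries with the genes. In 5 of the 6 it was control 3 that stood high: Rpl27a at 140.3 scaled FPKM against 115 to 118 in the other controls, Rps20 at 1030.3 against 818 to 852, Rps26 at 715 against 564 to 589, Rps29 at 1272 against 946 to 993, and the sum over all members at 40580.2 against 32557 to 33466. Rps27 in control 1 stood at 67.3 scaled FPKM against 3.11 to 4.09 in the other controls.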

How the results depend on the processing

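The count of 0 ribosomal protein genes called held in limma under all alternatives, those that leave out 1 library included, with between 1 and 8 members at an unadjusted p under 0.05. The 40 genes called over the whole table (22 higher, 18 lower) became 8 without a filter, 15 where the mean had to reach 5 scaled FPKM, 0 with the replicate block, 223 with Xist as a covariate, 3 in the 5 libraries without Xist, 13 without knockouts 2 and 4 and 103 with array weights, and between 2 and 27 without any 1 library. Without scaling 36 were higher and 13 lower. Same-numbered libraries correlated at -0.43, -0.19, 0.35 and 0.19 in their deviations from the group means. Without the correlations of differently numbered libraries beside them, these values do not tell whether replicate numbers pair the animals. With the block the Rpl3l share differed by -0.30 percentage points (exact permutation over sign changes within pairs, p = 0.625, where 4 pairs cannot go below 0.125), and without any 1 library by -1.02 to 0.23. The log2 ratio of the summed level was -0.13, between -0.16 and -0.05 without any 1 library (the nearest to 0 without control 3) and -0.03 without scaling. Of 724 values of single members and of their median, 17 moved by at least 1 SD of the controls. For the members' median of -0.11 that SD was 0.146, larger than the median itself. Its change to -0.00 with quantile normalization or 0.00 after removal of trends is therefore not among the 17. The low count does not show that the median held. The cause of these moves was not tested. Without read counts no precision per gene can be given.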
